A study of Mus musculus with 9 samples.

Results

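Normal mouse mammary fibroblasts that had shared a dish with 4T1 carcinoma cells for 5 days were compared with fibroblasts kept alone for the same 5 days. The comparison was defined by the culture labels and not by any measured value, and it takes in 6 of the 9 libraries of the study, 3 co-cultures and 3 monocultures, over all 11931 genes of the table. The cells were isolated from the mammary fat pads of female BALB/c animals aged 12 weeks and given 1 week on collagen to recover. In the co-cultures, 100000 4T1-GFP cells, a mouse mammary carcinoma line carrying green fluorescent protein, were put onto 300000 fibroblasts after 24 hours. Every library, the monocultures included, was made from cells sorted as GFP-negative and positive for podoplanin (PDPN), a surface protein of fibroblasts, so the groups share the sort. The other 3 libraries came from fibroblasts after 3 days with 4T1 cells. They are used below to show which levels at 5 days differed from those at 3 days, and they share the monoculture libraries as their control. They also entered the fit behind the p-values and standard errors of the 5-day comparison. There they share in the estimate of the spread and in the choice of genes tested.

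Fibroblasts in a mammary carcinoma make and remodel the collagen-rich matrix and secrete cytokines, growth factors and chemokines that reach carcinoma cells, vessels and immune cells. They are also receivers: interferons, interleukins, TGF-beta family proteins, Wnt proteins and retinoids each act on them through receptors and leave characteristic target genes switched on. Co-culture with carcinoma cells is used to follow how fibroblasts take on such a tumour-associated state outside the animal.

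Expression was read from the 3′ ends of mRNAs, and values are the authors' normalized counts. Depth lay between 1459381 and 3567326 recovered reads in the 6 libraries, with the 3 monocultures deeper than the 3 co-cultures. Of 10639 genes tested with limma, 1340 (12.6% of the genes tested) were higher in co-culture, 1212 (11.4%) were lower, and so 24.0% were called in either direction at an adjusted p under 0.05. The counts within gene lists below are to be read against these shares. At least 2-fold differences were present in 806 of the higher and 827 of the lower genes, and at least 8-fold differences in 114 and 104. In 1312 of the higher and 1182 of the lower genes the 3 co-cultures did not overlap the 3 monocultures, against 20.8% of all genes tested with the co-cultures above and 20.1% with them below. The median difference over all genes was -0.01 on the log2 scale, which is log2(value + 1) throughout. Because nothing says that the replicates were separate cultures or animals, p-values measure only the spread between the 9 libraries of the fit. In bulk RNA fewer cells of a type cannot be told apart from less RNA per cell.

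**Figure D1:**
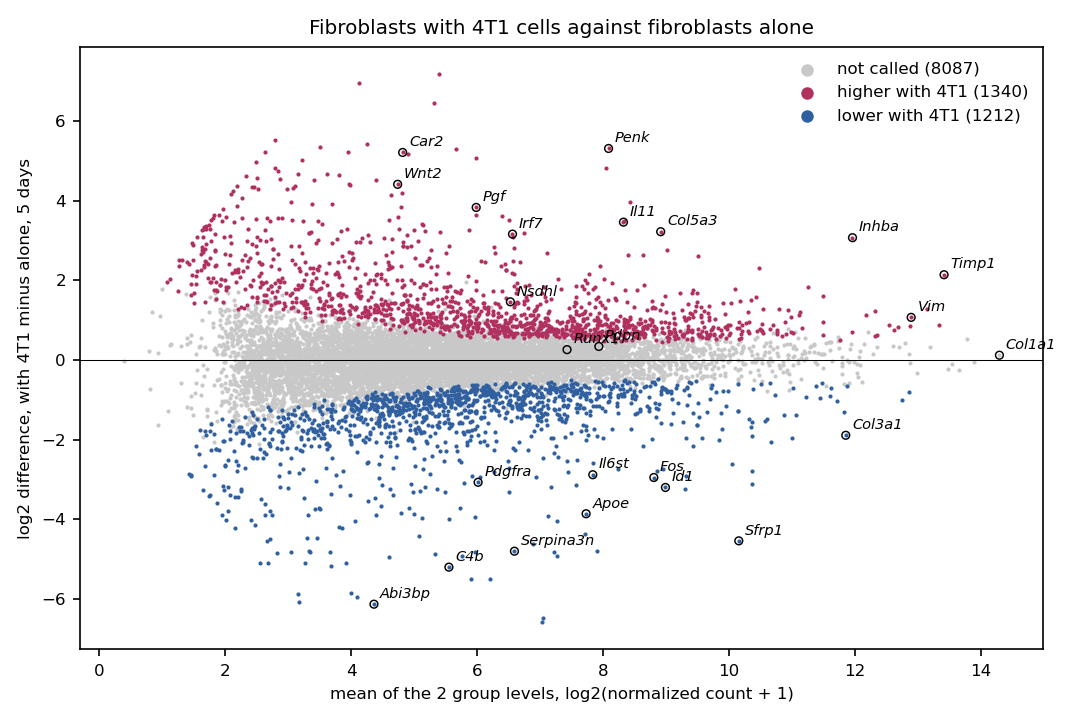
Each point is 1 of the 10639 genes tested; the x axis is the mean of both group levels and the y axis the difference between co-culture and monoculture at 5 days, both on the log2(normalized count + 1) scale. Genes called higher (1340) and lower (1212) spread on both sides of 0, and circled genes are named in the text.

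Pdpn, whose protein was the sort marker, measured 211.0, 197.1 and 236.5 in the monocultures and 318.1, 213.3 and 294.6 in the co-cultures, with overlapping ranges (log2 difference 0.34, SE 0.21; limma adjusted p = 0.28; exact two-sided permutation p = 0.2, where 0.1 is the smallest that 3 against 3 allows). Runx1, the transcription factor in the study's title, measured 162.2, 206.2 and 107.3 against 204.0, 161.1 and 187.3 (log2 difference 0.26, SE 0.23; adjusted p = 0.46; exact permutation p = 0.7). Of 14 fibroblast markers, all in the table, Vim, an intermediate filament gene, was higher, and Pdgfra, Pdgfrb, Col3a1, Dcn, Thy1 and S100a4 were lower. Their summed level was 56718.9 to 74163.5 in monoculture and 50606.4 to 65315.1 in co-culture.

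Epithelial genes moved with the co-culture. The 18 epithelial and carcinoma markers in the table of 23 listed summed to 74.7 to 106.5 in monoculture and 1110.4 to 1550.4 in the 5-day co-cultures, with 1135.5 to 1289.7 at 3 days. Cldn3, Elf3 and Grhl2 were at 0 in all 3 monocultures. Of the 15 that were tested, 13 were higher and 1 was lower, although the monoculture mean reached 5 for no more than 5 of them. Epcam, an epithelial adhesion molecule, had 1 read over the 3 monocultures and 54 over the co-cultures, a ratio of 94.9 (95% counting interval 16.3 to 3818). Krt7, a simple-epithelial keratin, rose from 4.13 ± 2.24 to 175 ± 27.6 (SD, n = 3). The part of these transcripts in the differences described below was not tested. Of 8 basal and myoepithelial markers 3 were in the table. Krt14 and Sfn were higher, by 2.42 and 3.41, and Oxtr was not tested and had 0 reads in the 5-day co-cultures. A mean of 5 was reached by 0 of them in monoculture. Krt14 and Sfn thus passed the filter on low values through the co-cultures and could hardly come out lower. The sum of that list lay at 2.5 to 11 in monoculture and 39.6 to 49.9 in co-culture. Of 5 pericyte and smooth muscle markers tested 1 was higher, the proteoglycan gene Cspg4 by 3.38. Of the myeloid markers Ptprc, Adgre1, Itgam and Cd74 were not in the table, 0 of the 7 tested were higher, and no listed lymphocyte or adipocyte marker was in the table.

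Interferon effectors, the proteins that block viral replication and tag other proteins after an interferon signal, were higher in 30 of 38 tested cases (78.9%) and lower in 1, with a median log2 difference of 1.69. A mean of 5 was reached by 28 of the 38 in monoculture and by all 38 at 5 days. Those that passed the filter on low values through the co-cultures alone could hardly come out lower, which raises the share and the median. The interferon-stimulated response element of promoters has a core of GAAA and again GAAA with any 2 bases between them, so the promoters of 5 effectors are shown. The sequences are from RefSeq on GRCm38.p6, 5′ to 3′ on the gene's own strand, with every match to the motif on either strand in capitals, where a match on the opposite strand reads TTTC, any 2 bases and TTTC. Isg15 (chr4:156200819-156200968, reverse strand) encodes a ubiquitin-like modifier, Ifit1 (chr19:34640739-34640888, forward) and Ifit3 (chr19:34583329-34583478, forward) RNA-binding antiviral proteins, Bst2 (chr8:71537523-71537672, reverse) the virion tether tetherin and Rsad2 (chr12:26456453-26456602, reverse) the enzyme viperin.
Isg15: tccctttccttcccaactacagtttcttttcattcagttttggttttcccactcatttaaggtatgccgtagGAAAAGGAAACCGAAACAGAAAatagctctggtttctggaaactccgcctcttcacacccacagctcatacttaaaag
Ifit1: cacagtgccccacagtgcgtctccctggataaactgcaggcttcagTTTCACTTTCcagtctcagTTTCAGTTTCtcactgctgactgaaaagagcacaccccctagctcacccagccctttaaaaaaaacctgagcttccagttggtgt
Ifit3: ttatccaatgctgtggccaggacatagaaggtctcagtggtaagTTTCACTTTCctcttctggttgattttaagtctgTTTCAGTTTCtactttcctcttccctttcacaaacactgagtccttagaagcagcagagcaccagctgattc
Bst2: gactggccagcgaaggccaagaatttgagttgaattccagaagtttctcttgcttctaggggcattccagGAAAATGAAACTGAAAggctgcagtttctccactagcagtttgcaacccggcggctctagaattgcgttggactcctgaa
Rsad2: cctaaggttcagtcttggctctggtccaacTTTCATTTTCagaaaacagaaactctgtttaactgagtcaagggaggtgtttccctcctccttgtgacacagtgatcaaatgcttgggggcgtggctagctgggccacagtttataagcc
The motif occurred 3 times in the Isg15 window, with neighbouring matches overlapping, 2 times each in Ifit1, Ifit3 and Bst2, and 1 time in Rsad2. In the 250 bases before the start it was present in 10 of 28 effectors with a promoter in the table (35.7%), in 3.46% of all 27025 genes with a promoter and in 3.2% of the genes tested. Among all genes called higher it was in 43 of 1027 (4.19%), and among those called lower in 33 of 954 (3.46%). The 10 effectors with the motif included Ifitm2, the 1 that was lower. Socs1, a brake on cytokine receptors that was also lower, held it too. A match describes these letters only.

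Ifit1 measured 11.8, 7.7 and 5.8 in the monocultures and 39.5, 61.5 and 71.2 in the co-cultures. The groups did not overlap, and the log2 difference was 2.64 (SE 0.29; limma adjusted p = 7e-06). Bst2 measured 116.4, 108.2 and 84.2 against 479.8, 437.7 and 474.4, a rise of 2.17 (SE 0.19; adjusted p = 4.6e-07), with every co-culture above every monoculture. Ifi44, an interferon-induced protein (chr3:151730922-151749960, reverse strand), went from 1.2, 4.8 and 4.5 to 64.7, 122.0 and 102.4, a log2 rise of 4.51. Oas3, a sensor of double-stranded RNA, had 0 reads in the monocultures and 50 with 4T1 cells, which is at least 29.3-fold higher when 3 reads over the group stand in for the 0. Rsad2 had 2 and 40 reads, a ratio of 35.2 (95% counting interval 9.12 to 300.0). These intervals and bounds take in the error of counting reads and no other. The effector that was lower was Ifitm2, a membrane restriction factor, at 662.8, 804.7 and 754.6 alone and 303.7, 336.2 and 199.7 with 4T1 cells (log2 difference -1.43, SE 0.21; adjusted p = 9.2e-05). Against 3 days of co-culture, 0 effectors were higher and 1, the nucleic acid sensor Zbp1, was lower by 1.43, where 3.2% and 3.71% of all genes tested were higher and lower and 6.91% were either.

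Of 20 sensors, receptors and transcription factors of the interferon system, 5 were higher (25.0%, against 12.6% of all genes tested). The 3 that were lower (15.0%) lay near the share of all genes tested, 11.4%. Irf7 (chr7:141262706-141266481, reverse strand), the factor that amplifies type I interferon production, measured 29.7, 26.9 and 35.3 alone and 289.3, 295.2 and 258.4 with 4T1 cells, a log2 rise of 3.16 (SE 0.19; limma adjusted p = 8.9e-09). Stat2 and Irf9, partners in the interferon-activated complex, each rose by 1.41, and the RNA helicase Ifih1 by 2.18. The helicase Ddx58 was not called (0.78; adjusted p = 0.11). The 3 lower genes were Tmem173, which encodes the adaptor STING, at -1.05, Irf1 at -0.82 and Socs1, a brake on cytokine receptors, at -0.98. This count was 1 without monoculture replicate 1 and 1 without co-culture replicate 2: Irf1 lost its call without monoculture replicate 1 (adjusted p = 0.068) or 3 (0.094) or co-culture replicate 2 (0.088), and Socs1 without monoculture replicate 1 (0.11) or 2 (0.1), co-culture replicate 1 (0.068) or 2 (0.15), or at equal depth (0.082). Of 8 interferon-induced GTPases 6 were higher, among them Gbp3 at 6.63 ± 1.96 and 37.1 ± 8.75 (SD, n = 3) and Mx2 at 3.67 ± 1.44 and 42.4 ± 5.54. In class I antigen presentation 8 of 16 genes were higher and 1 was lower, with 4 higher without monoculture replicate 3 and 5 higher at equal depth. H2-K1, a class I heavy chain, rose by 1.46, while the peptide transporter Tap1 was not called (0.4; adjusted p = 0.27). Class I heavy chains, and the Ifit and Oas genes, have near-identical copies between which reads could have been split or lost.

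**Figure D2:**
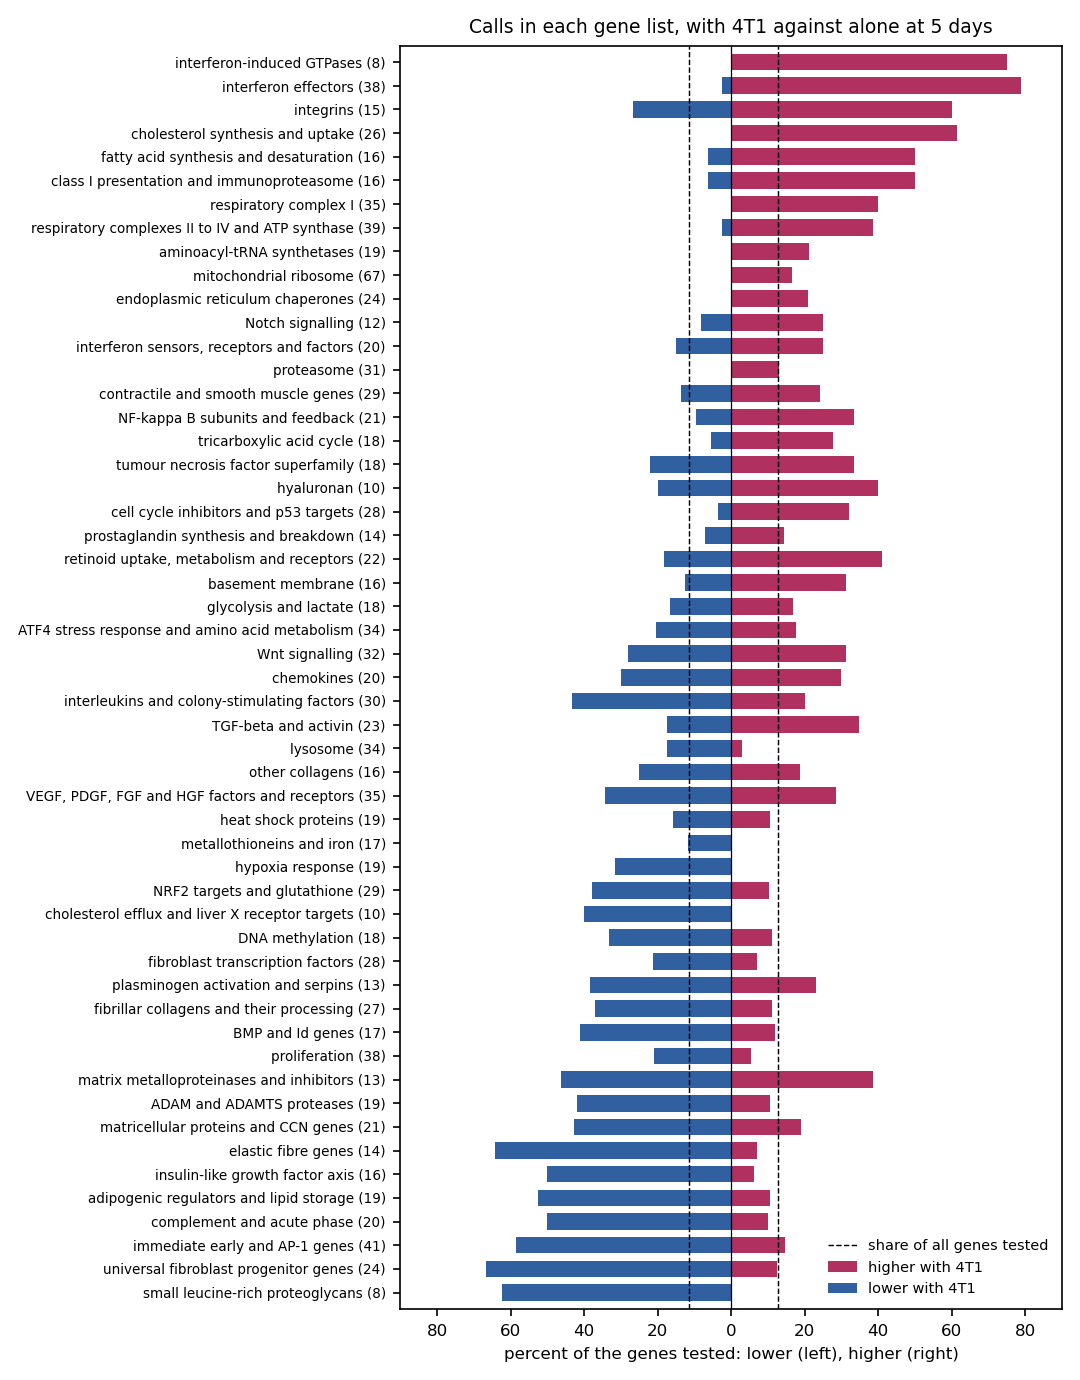
Bars give, for each of 53 gene lists, the percent of its tested genes called higher (right) and lower (left) in co-culture at 5 days, with the number tested in parentheses, ordered by the list's median difference; dashed lines mark the shares of all genes tested, 12.6% and 11.4%. Interferon-induced GTPases, interferon effectors and cholesterol synthesis lie near the top and small leucine-rich proteoglycans and progenitor genes at the bottom.

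Cholesterol synthesis and uptake was the second group with a large share of higher genes: 16 of 26 were higher, 0 were lower, and the median log2 difference was 1.04. Of these 26 genes, 13 were higher than at 3 days of co-culture, against 3.2% of all genes tested; the count of 13 was 7 without 3-day replicate 2 or 5-day replicate 1 and 8 without 5-day replicate 2 or 3. The pathway is run by SREBP2, which binds sterol elements when membrane cholesterol is low and raises the synthetic enzymes and the uptake of lipoproteins. Hmgcs1 makes HMG-CoA, and its promoter (chr13:119690151-119690300, forward strand) is shown because it alone among the 19 of the list with a promoter held the sterol element TCACNCCAC (5.26%, against 1.22% of all promoters).
Hmgcs1: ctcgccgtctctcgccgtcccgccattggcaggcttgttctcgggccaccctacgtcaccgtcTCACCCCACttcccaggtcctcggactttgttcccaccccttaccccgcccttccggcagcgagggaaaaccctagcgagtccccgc
Hmgcs1 measured 256.8, 164.9 and 167.1 in the monocultures and 293.8, 309.2 and 368.3 in the co-cultures, without overlap (log2 difference 0.74, SE 0.21; adjusted p = 0.015). It fell short of the threshold when monoculture replicate 2 (adjusted p = 0.069), monoculture replicate 3 (0.074) or co-culture replicate 3 (0.063) was left out, and at equal depth (0.085). It was higher at 5 than at 3 days, by 1.21. Among later enzymes of the pathway, Sqle, which oxidizes squalene, rose by 1.3 and Cyp51 by 1.69, while Lss was not called (0.64; adjusted p = 0.3). Nsdhl, a sterol dehydrogenase, measured 43.3, 70.2 and 48.2 alone and 179.7, 187.2 and 93.6 with 4T1 cells, without overlap, a rise of 1.46 (SE 0.28; adjusted p = 0.0013). Srebf2, the gene of SREBP2 itself, missed the threshold at 84.9 ± 8.28 and 124 ± 10.5 (SD, n = 3; log2 difference 0.54, adjusted p = 0.055).

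Fatty acid genes moved in the same direction, with 8 of 16 higher and 1 lower. Fads2, which desaturates polyunsaturated fatty acids, rose by 2.15, Acsl3, which activates fatty acids for lipid droplets, by 1.66, and the stearoyl-CoA desaturases Scd1 and Scd2 by 1.35 and 0.94. The synthase Fasn, at a mean of 5.23 in monoculture, was not called (-0.45; adjusted p = 0.7). Plin2, the coat protein of lipid droplets, measured 236.4, 184.1 and 201.8 against 873.3, 789.8 and 656.7, a log2 rise of 1.89 (SE 0.17; adjusted p = 8.1e-07). In the opposite direction went genes of cholesterol efflux and targets of liver X receptors, which sense oxidized cholesterol: 0 of 10 were higher and 4 were lower, or 2 without monoculture replicate 1. Apoe, a lipid carrier (chr7:19696109-19699188, reverse strand), measured 836.8, 1044.5 and 564.3 alone and 48.5, 68.0 and 46.2 with 4T1 cells, a fall of 3.86 (SE 0.27; adjusted p = 5.2e-08). The receptor gene Nr1h3 had a difference of -2.84 and the exporter Abca1 one of -1.84.

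ATF4 is the transcription factor of the integrated stress response that raises amino acid synthesis and import. The list of its stress response and of amino acid metabolism, not all of them known targets, was divided at 5 days. Of 34 genes 6 were higher and 7 lower, with a median difference of -0.02. Against 3 days of co-culture, 25 of the 34 were lower and 0 were higher, where 3.71% and 3.2% of all genes tested were. ATF4 composite elements read TGATGNAA, and the promoters of the amino acid synthetase gene Asns (chr6:7693210-7693359, reverse strand), the cystine importer Slc7a11 (chr3:50443614-50443763, reverse) and the glutathione-degrading Chac1 (chr2:119351012-119351161, forward) are printed with their matches on either strand in capitals.
Asns: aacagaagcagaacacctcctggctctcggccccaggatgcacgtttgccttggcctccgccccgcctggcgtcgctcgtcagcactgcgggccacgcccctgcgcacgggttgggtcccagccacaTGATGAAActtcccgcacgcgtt
Slc7a11: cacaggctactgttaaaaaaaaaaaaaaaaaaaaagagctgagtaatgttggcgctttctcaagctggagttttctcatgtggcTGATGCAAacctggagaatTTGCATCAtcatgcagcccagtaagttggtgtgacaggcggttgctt
Chac1: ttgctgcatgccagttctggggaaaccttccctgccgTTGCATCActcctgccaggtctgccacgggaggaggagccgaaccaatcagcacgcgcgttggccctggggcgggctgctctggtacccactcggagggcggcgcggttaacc
The element was found in 7 of 28 members with a promoter (25.0%) and in 3.91% of all promoters. Asns averaged 278 ± 10 in monoculture, 813 ± 155 after 3 days and 234 ± 43.8 after 5 days with 4T1 cells (SD, n = 3). Its 5-day level was not called against monoculture (log2 difference -0.26; adjusted p = 0.35) and lay 1.79 below the 3-day level (adjusted p = 8e-05). Chac1 measured 63.7, 51.4 and 63.6 alone, averaged 398 at 3 days and measured 177.9, 198.4 and 119.8 at 5 days, above monoculture by 1.43 and below 3 days by 1.28. Gdf15, a stress hormone (chr8:70629393-70632456, reverse strand), measured 89.1, 45.2 and 84.2 alone and 31.4, 27.0 and 32.5 at 5 days, after a mean of 435 at 3 days. It was therefore lower than monoculture (-1.18; adjusted p = 0.0022) and lower than at 3 days (-3.8; adjusted p = 5e-07). Fgf21, also a stress hormone, and Trib3, an ATF4-induced inhibitor, stayed above monoculture by 1.32 and 1.31 but lay 2.47 and 1.49 below 3 days. Slc7a11, with a mean of 2.03 alone and 1.83 at 5 days, was not called against monoculture (adjusted p = 0.82). The serine synthesis gene Psat1 and the amino acid carrier Slc38a2 were lower than monoculture, with differences of -1.32 and -1.72.

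**Figure D3:**
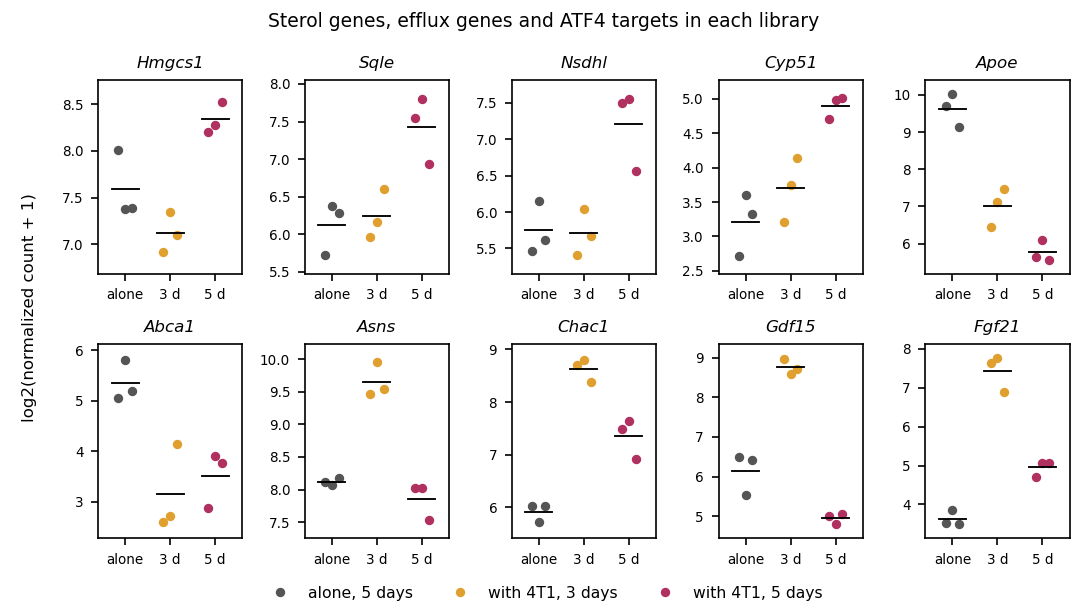
Each panel shows 1 gene; points are libraries, the black bar is the mean of 3, the x axis gives monoculture and 3 and 5 days of co-culture, and the y axis the level as log2(normalized count + 1), with a range of its own in each panel. Sterol genes lie above monoculture at 5 days, Apoe and Abca1 lie below it, and the ATF4 targets Asns, Chac1, Gdf15 and Fgf21 are lower at 5 days than at 3.

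Of 35 tested genes of respiratory complex I, 14 were higher, 0 were lower and 21 were not called, with a median of 0.47, and Ndufb9 measured 695.6, 770.5 and 728.8 against 1266.9, 1299.3 and 1308.4 (log2 difference 0.82). For complexes II to IV and ATP synthase, 15 of 39 were higher and 1 was lower; the cytochrome oxidase subunits Cox7a2 and Cox6b1 rose by 1.07 and 0.91. These counts leaned on single libraries, since complex I gave 8 without co-culture replicate 2 and 9 without monoculture replicate 3, and the second list gave 9 without co-culture replicate 2. Complex I also gave 9 with every library thinned to 1048471 reads. In the hypoxia response 0 of 19 were higher and 6 were lower, among them Adm, the vasodilator adrenomedullin, at 286 ± 65.1 and 27.6 ± 5.12 (SD, n = 3; log2 difference -3.31).

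Cytokine ligands and their receptors went in opposite directions in the interleukin 6 family, whose members signal through the shared receptor chain gp130, encoded by Il6st. In the list of interleukins, colony-stimulating factors and their receptors, 6 of 30 were higher and 13 were lower. Il11 (chr7:4772373-4782859, reverse strand) measured 44.6, 63.4 and 212.1 in the monocultures and 820.3, 1039.4 and 983.8 in the co-cultures, a rise of 3.46 (SE 0.4; limma adjusted p = 9.6e-06). Lif (chr11:4257557-4272514, forward strand) measured 258.7, 315.3 and 406.2 against 843.7, 910.9 and 1468.2, a rise of 1.69 (SE 0.22; adjusted p = 3.6e-05). Neither overlapped between groups. Il6 measured 93.5, 224.0 and 102.2 against 218.3, 425.6 and 548.1, where 1 co-culture lay below the highest monoculture (log2 difference 1.52, SE 0.34; adjusted p = 0.0037). Csf3, which drives neutrophil production, went from a mean of 1.1 to 31.6, a log2 difference of 3.96, and Il23a, a subunit of interleukin 23, from 0 to 24 reads, at least 14.1-fold higher.

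Il6st (chr13:112464070-112510086, forward strand) measured 709.9, 738.3 and 432.6 alone and 82.7, 84.8 and 78.7 with 4T1 cells, a fall of 2.88 (SE 0.2; adjusted p = 5.9e-08). The specific receptor chains were lower too: Osmr had a difference of -1.91, Lifr -1.93 and Il11ra1 -1.46. Downstream, Stat3 measured 297.1, 287.4 and 287.3 against 153.6, 99.7 and 151.1 (-1.13, SE 0.2; adjusted p = 0.00067). Socs3, the feedback inhibitor that gp130 signals induce (chr11:117966079-117970047, reverse strand), measured 362.1, 382.1 and 332.3 against 62.0, 68.9 and 66.2, a fall of 2.43 (SE 0.23; adjusted p = 1.4e-06). Each of Il6st, Stat3 and Socs3 was lower in every co-culture than in every monoculture. Il1r1, the interleukin 1 receptor, and Il1rn, its soluble antagonist, had differences of -2.93 and -5.18. Csf2, which encodes GM-CSF, had 1 read in monoculture and 7 at 5 days and was not called (adjusted p = 0.21), while its mean at 3 days was 70.8.

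**Figure D4:**
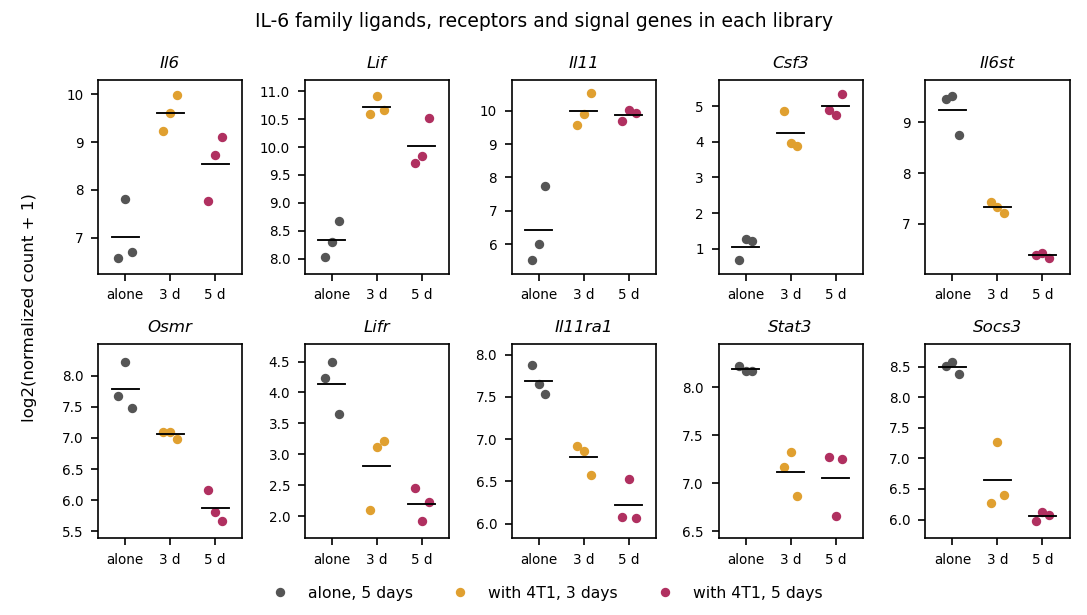
Points are libraries and black bars means of 3 in monoculture and after 3 and 5 days of co-culture; the y axis is the level as log2(normalized count + 1), with a range of its own in each panel. The means of the ligands Il6, Lif and Il11, and of Csf3, lie above monoculture at 5 days, with 1 Il6 co-culture below the highest monoculture. The means of the receptor genes Il6st, Osmr, Lifr and Il11ra1, with Stat3 and Socs3, lie below it.

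Chemokines, which direct leukocyte traffic, were divided evenly, with 6 of 20 higher and 6 lower. Cxcl10 and Ccl5, which attract T cells, rose by 3.52 and 3.18, from means of 6.13 and 2.5 to 80.7 and 28.1. Cxcl16, a membrane-bound chemokine, rose by 1.23. Cxcl14 (chr13:56288643-56296551, reverse strand) measured 2810.4, 3826.7 and 3237.4 alone and 586.7, 826.1 and 962.5 with 4T1 cells, a fall of 2.07 (SE 0.25; adjusted p = 1.5e-05). The neutrophil attractant Cxcl1 had a difference of -1.95 and a 5-day level 2.23 below that at 3 days. Its relative Cxcl5 was not called against monoculture (-0.79; adjusted p = 0.14) and lay 2.03 below 3 days. Of 20 complement and acute phase genes 10 were lower and 2 higher. C4b, a complement component (chr17:34728380-34743882, reverse strand), measured 255.6, 374.0 and 158.1 against 1.8, 6.5 and 13.7, and Ptx3, a soluble pattern receptor, averaged 804 ± 405 and 26.3 ± 8.81 (SD, n = 3). The differences were -5.2 and -4.81, and C1s1, a protease of the same cascade, had one of -2.47. Feedback and effector genes of NF-kappa B included Tnfaip3, its inhibitor A20, which rose by 2.25, and Ptgs2, the inducible cyclooxygenase, which rose by 1.67, while the adhesion molecule Vcam1 had a difference of -1.85.

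Immediate early genes, which respond to growth factors and handling within minutes, were lower in the main. Of 41 tested, 24 were lower (58.5%, against 11.4% of all genes tested), and the median was -1.27. The 6 that were higher (14.6%) lay near the share of all genes tested, 12.6%. Fos (chr12:85473890-85477273, forward strand) measured 1379.5, 1088.3 and 1256.5 in the monocultures and 166.2, 142.5 and 169.8 in the co-cultures, a log2 difference of -2.95. Egr1 measured 1727 ± 95.5 and 522 ± 108 (SD, n = 3; -1.74). The genes that rose included Klf6, by 1.07, and Rhob, by 1.04. That count of 6 became 2 without co-culture replicate 2, and 3 at equal depth or without monoculture replicate 1, monoculture replicate 2 or co-culture replicate 3.

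Of 27 genes of fibrillar collagens and their processing, 10 were lower (37.0%, against 11.4% of all genes tested) and 3 higher (11.1%, against 12.6%, so near that share). Col1a1 and Col1a2, the chains of type I collagen, were not called (0.12, adjusted p = 0.78, and -0.23, adjusted p = 0.43). Col3a1, the type III chain, measured 5602.9, 10926.8 and 5379.6 alone and 1910.2, 2100.3 and 1599.2 with 4T1 cells, a fall of 1.89 (SE 0.25; adjusted p = 4.2e-05). Col5a3, a type V chain (chr9:20770050-20815067, reverse strand), measured 142.3, 159.1 and 169.0 against 1468.1, 1538.6 and 1407.0, a rise of 3.22 (SE 0.16; adjusted p = 1.3e-09). Neither gene's groups overlapped. The proteases that trim procollagens moved apart, with Adamts2 (chr11:50602084-50807573, forward strand) at 107 ± 6.37 and 11.1 ± 2.95 (SD, n = 3) and Adamts14 at 14.6 ± 9.17 and 73.2 ± 12.1. Among other collagens, Col12a1, which coats fibrils, had a difference of -2.58, and Col7a1, the anchoring fibril collagen, and Col15a1 rose by 2.69 and 1.86.

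Proteoglycans and elastic fibre genes were lower. Of 8 small leucine-rich proteoglycans, which bind and space collagen fibrils, 5 were lower and 0 higher, with a median of -1.82; Dcn, decorin, measured 3469 ± 1045 and 1316 ± 319 (SD, n = 3). Of 14 elastic fibre genes 9 were lower and 1 was higher. Mfap4, a microfibril protein, measured 706.8, 818.1 and 727.6 against 68.3, 123.9 and 164.8, a fall of 2.73. Fbln1, fibulin 1, had 274 reads in monoculture and 3 in co-culture, a ratio of 52.0 (95% counting interval 17.6 to 253.0).

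Metalloproteinases and their inhibitors were split, with 5 of 13 higher and 6 lower. Timp1, an inhibitor (chrX:20870166-20874735, forward strand), measured 3488.1, 4887.5 and 7433.7 alone and 19504.2, 28435.0 and 19724.0 with 4T1 cells, a rise of 2.14 (SE 0.27; adjusted p = 2.5e-05). Timp3 rose by 1.22 and the collagenase Mmp13 by 1.82, while the gelatinase Mmp2, Mmp11, Mmp23 and the membrane-anchored inhibitor Reck had differences of -1.28, -2.07, -1.78 and -1.84. Mmp3, at 2334 ± 559 and 1715 ± 850 (SD, n = 3), was not called (-0.56; adjusted p = 0.24). Serpina3n, an inhibitor of leukocyte proteases (chr12:104406729-104414329, forward strand), measured 469.7, 746.0 and 323.9 against 24.3, 12.1 and 15.0, a difference of -4.8.

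Of 15 integrins, receptors for matrix, 9 were higher and 4 were lower, with a median of 1.2. Itgb1, the common beta chain, measured 1377.1, 1523.3 and 1509.1 against 3448.4, 3276.6 and 3408.2 (log2 difference 1.2), Itgb3 rose by 2.69 and Itga5 by 1.56. The laminin-binding chains Itga3 and Itga6 rose by 2.48 and 2.47. Itga11, a collagen receptor of fibroblasts (chr9:62677826-62783982, forward strand), measured 1467.4, 1319.0 and 895.3 against 169.8, 190.0 and 164.8, a fall of 2.78 (SE 0.2; adjusted p = 5.3e-08), and Itga8 had a difference of -3.54. Lamb3 and Lama3, laminin chains of epithelial basement membranes, were near 0 in monoculture: Lamb3 (chr1:193207699-193343878, forward strand) had 2 reads alone and 103 in co-culture, a ratio of 90.5 (95% counting interval 24.4 to 758.0), and Lama3 had 1 and 21 reads and lost its call at equal depth (adjusted p = 0.21). These rises went with the summed epithelial markers, 74.7 to 106.5 in monoculture and 1110.4 to 1550.4 in co-culture, and the part of those transcripts was not tested. Agrn, agrin of basement membranes, rose by 2.04, and Nid2, nidogen 2, had a difference of -2.92. Cd44, the hyaluronan receptor, and Has2, a hyaluronan synthase, rose by 1.51 and 1.86.

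Of 29 contractile and smooth muscle genes 7 were higher (24.1%, against 12.6% of all genes tested) and 4 lower (13.8%, against 11.4%, so near that share). The summed markers of pericytes and smooth muscle cells lay at 61.1 to 134.3 in monoculture and 206.8 to 257.9 in co-culture. Of the 5 markers tested, Cspg4 alone was called higher, and 2 had negative differences. The part of these markers in the contractile levels was not tested. Acta2, the alpha smooth muscle actin that marks myofibroblasts, was not called (-0.16; adjusted p = 0.72). Cnn1, calponin, and Actn1 both rose by 0.95, while Tagln measured 3618.7, 2487.5 and 3698.2 against 1424.1, 1652.3 and 2092.4 (-0.92; adjusted p = 0.023) and Mylk, a myosin kinase, had a difference of -1.77. Tagln lost its call without monoculture replicate 1 (adjusted p = 0.067) or 3 (0.085) or co-culture replicate 1 (0.095) or 2 (0.069), and Mylk without monoculture replicate 2 (0.054) or co-culture replicate 3 (0.053). The 4 lower calls became 2 without monoculture replicate 3, co-culture replicate 1 or co-culture replicate 3.

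Genes of universal and progenitor fibroblasts, the state found next to vessels and in fascia in many tissues, were lower in 16 of 24 cases (66.7%, against 11.4% of all genes tested). The 3 that were higher (12.5%) lay near the share of all genes tested, 12.6%, and the median was -1.4. A mean of 5 was reached by all 24 in monoculture and by 19 at 5 days. Of the 24, 7 were lower than at 3 days, or 4 without 3-day replicate 2 or 5-day replicate 1. Pdgfra, the PDGF receptor chain that defines many fibroblasts, measured 126.9, 234.6 and 206.3 in the monocultures and 18.0, 22.4 and 22.5 in the co-cultures, a fall of 3.07. Ly6c1 had a difference of -3.83, Pi16 of -2.74, Tnxb, a matrix protein, of -3.4 and Osr1, a transcription factor of connective tissue progenitors, of -2.8. Cd34 had 74 reads alone and 1 with 4T1 cells, a ratio of 42.1 (95% counting interval 7.32 to 1685). The 3 that rose were Procr, Anxa3 and Col15a1, and Procr is 1 of the 7 lower than at 3 days (-0.82). Adipogenic genes were lower in 10 of 19 cases (52.6%) and higher in 2 (10.5%, against 12.6% of all genes tested, so near that share). Fabp4, a fatty acid carrier, and Lpl, lipoprotein lipase, had differences of -3.25 and -3.87.

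Secreted growth signals went in both directions. In the TGF-beta and activin list 8 of 23 were higher and 4 lower. Inhba, the subunit of activin A (chr13:16011851-16031621, forward strand), measured 1337.5, 908.0 and 1956.4 against 11010.9, 9789.7 and 13101.1, a rise of 3.07 (SE 0.26; limma adjusted p = 3.5e-07). Tgfb1, Tgfb2 and Tgfb3 rose by 1.83, 2.01 and 1.57, and the co-receptor Tgfbr3 (chr5:107106570-107289629, reverse strand) measured 430 ± 40.5 and 47.4 ± 13.2 (SD, n = 3). Of 17 BMP and Id genes 7 were lower (41.2%, against 11.4% of all genes tested) and 2 higher (11.8%, against 12.6%, so near that share). Id1, an inhibitor of differentiation factors and a direct BMP target (chr2:152736251-152737410, forward strand), measured 1341.2, 1535.8 and 1731.5 against 195.0, 141.6 and 163.5, a fall of 3.2 (SE 0.18; adjusted p = 5.7e-09). Id2, Id3 and Id4 had differences of -1.82, -0.9 and -5.96, and the BMP feedback inhibitor Smad6 one of -2.48.

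Of 32 Wnt signalling genes tested, 10 were higher and 9 lower, and 6 were higher than at 3 days. The last count was 3 without 3-day replicate 2, 5-day replicate 1 or 5-day replicate 2 and at equal depth, and 2 without 5-day replicate 3. The ligand Wnt2 (chr6:17988940-18030585, reverse strand) measured 7.4, 2.9 and 4.5 alone and 115.9, 118.3 and 123.6 with 4T1 cells, a rise of 4.41 (SE 0.3; adjusted p = 3.5e-08). Wnt9a measured 39.0, 39.9 and 26.4 against 220.1, 259.9 and 274.7, a rise of 2.82. Both were also higher than at 3 days, by 1.92 and 1.71. Wnt7b and Wnt11 rose by 4.28 and 3.48 from means of 0.767 and 2.47, and the pathway's targets Axin2 and Tcf7 by 2.02 and 2.68. The secreted antagonist Sfrp1 (chr8:23411502-23449632, forward strand) measured 4711.1, 6671.8 and 4498.4 against 142.9, 392.1 and 197.3, a fall of 4.54 (SE 0.33; adjusted p = 6.8e-08). Sfrp4 and Dkk2 had differences of -3.18 and -2.27, and Sfrp2, at 306 reads alone and 3 with 4T1 cells, a ratio of 58.0 (95% counting interval 19.7 to 283.0). In Notch signalling 3 of 12 were higher (25.0%, against 12.6% of all genes tested), or 1 without co-culture replicate 3. In the same list 1 was lower (8.33%, against 11.4%, so near that share). The ligand Jag1 (chr2:137081456-137116644, reverse strand) measured 8.0, 6.7 and 8.4 against 85.4, 68.9 and 58.7, and the effectors Heyl and Hes1 had differences of 3.51 and -1.62. Jag1 and Heyl were higher than at 3 days, by 2.18 and 3.06.

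Angiogenic and mitogenic factors were 10 of 35 higher and 12 lower. Pgf, placental growth factor (chr12:85166635-85177790, reverse strand), measured 17.3, 11.1 and 18.6 against 283.9, 276.6 and 156.1, a rise of 3.83 (SE 0.28; adjusted p = 9e-08). Vegfc, the lymphatic growth factor, rose by 2.75, Pdgfa and Pdgfc by 1.94 and 2.1, Fgf18 by 2.25 and Hbegf, a ligand of the EGF receptor, by 2.6. Fgf10, a mesenchymal signal to epithelium (chr13:118669791-118792115, forward strand), measured 61.9, 60.6 and 72.6 against 1.8, 2.8 and 5.0, a fall of 4.04. Mdk, midkine, had a difference of -2.93. The insulin-like growth factor axis was lower in 8 of 16 cases and higher in 1: Igf1 measured 120.7, 69.7 and 87.4 against 8.1, 17.7 and 37.5, and the binding proteins Igfbp3 and Igfbp4 had differences of -2.02 and -2.74.

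**Figure D5:**
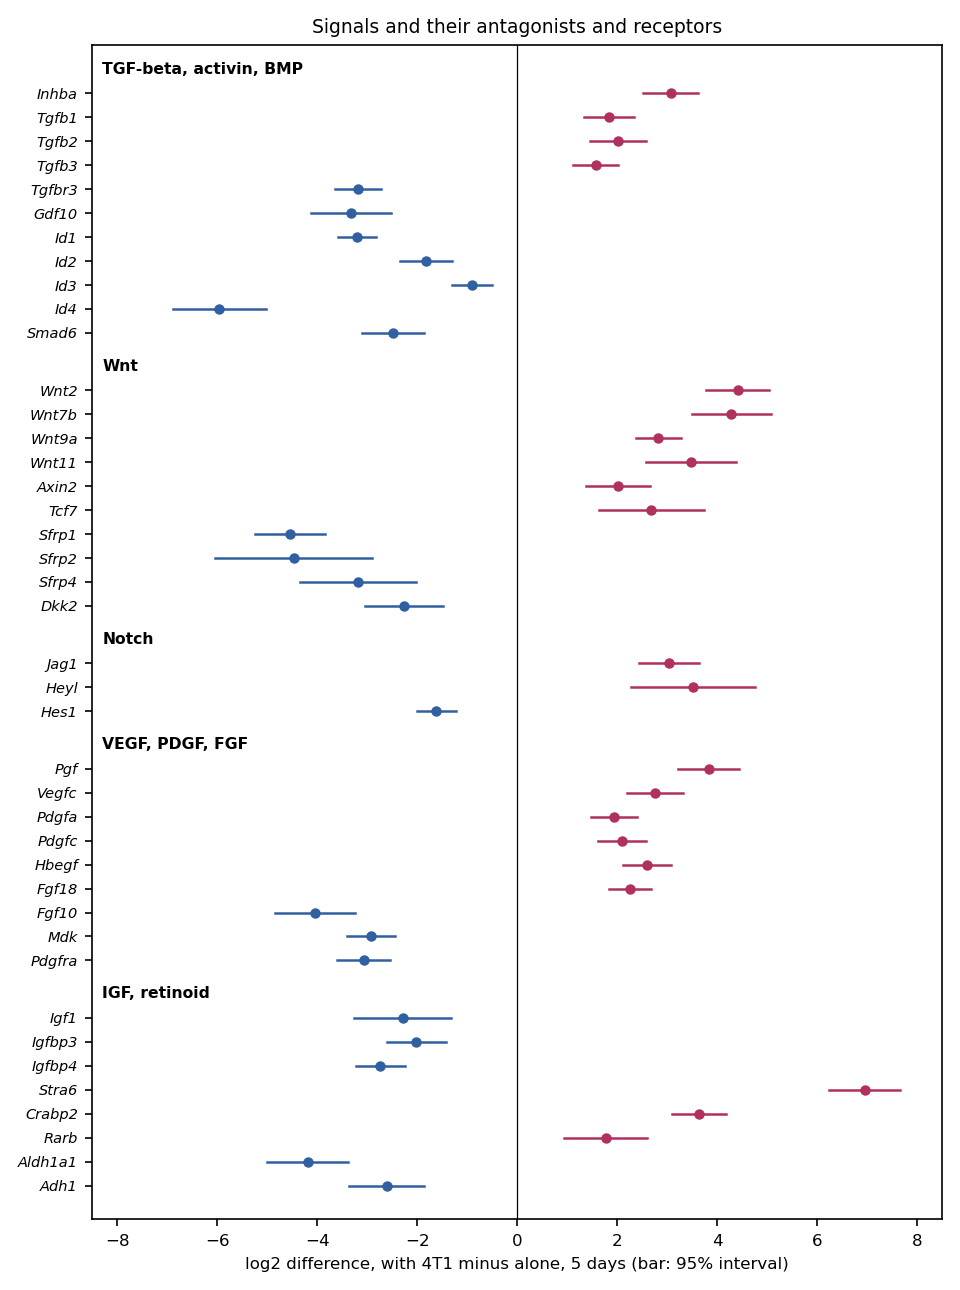
Points give the log2 difference between co-culture and monoculture at 5 days for 41 genes of secreted signals, their antagonists, receptors and targets, and bars its 95% interval from limma; red genes were called higher and blue genes lower. Ligands such as Inhba, Wnt2, Jag1 and Pgf lie to the right of 0, and Sfrp1, Fgf10, Pdgfra, Igf1 and the Id genes to the left.

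Retinoid genes were higher in 9 of 22 cases and lower in 4. Stra6, the retinol importer (chr9:58063788-58153996, forward strand), had 3 reads in monoculture and 579 in co-culture, and Crabp2, which carries retinoic acid to its receptors (chr3:87948666-87953376, forward strand), measured 16.7, 18.7 and 15.4 against 278.5, 216.1 and 178.5, a rise of 3.63 (SE 0.25; adjusted p = 4.8e-08). The receptor Rarb, itself a retinoic acid target, rose by 1.77. Aldh1a1, an enzyme that makes retinoic acid (chr19:20492715-20643465, forward strand), measured 53.8, 59.1 and 56.6 against 0.9, 3.7 and 2.5, a fall of 4.19. Adh1, which oxidizes retinol, and Rbp4, the serum carrier, had differences of -2.61 and -2.08.

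Of 38 proliferation genes 8 were lower and 2 higher, with a median of -0.5, and Ube2c, a mitotic ubiquitin-conjugating enzyme, had a difference of -1.26, while Mki67 was not called (-0.95; adjusted p = 0.079). The count of 8 was 3 without monoculture replicate 3 and 5 without co-culture replicate 1. Of 28 cell cycle inhibitors and p53 targets 9 were higher, or 5 without monoculture replicate 3, and 1 was lower: Cdkn2b, the inhibitor p15 (chr4:89306299-89311039, reverse strand), measured 123.2, 95.7 and 104.8 against 498.7, 557.0 and 625.5, a rise of 2.37. Oxidant defence genes under NRF2 were lower in 11 of 29 cases (37.9%) and higher in 3 (10.3%, against 12.6% of all genes tested, so near that share). The count of 3 was 5 without 3-day replicate 3. Hmox1, heme oxygenase, measured 2322 ± 230 and 735 ± 188 (SD, n = 3), Gclm of glutathione synthesis and the extracellular dismutase Sod3 had differences of -1.66 and -3.25, and Prdx1 rose by 1.44.

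Some of the widest differences lay outside these groups. Penk, the opioid precursor proenkephalin, averaged 40.8 ± 3.41 alone and 1766 ± 722 with 4T1 cells (SD, n = 3), a rise of 5.31. Car2, a carbonic anhydrase (chr3:14886273-14900770, forward strand), measured 2.5, 2.9 and 5.8 against 177.0, 148.1 and 176.0, and was 2.05 higher than at 3 days. Gpa33, an epithelial surface antigen, and Prokr2, a prokineticin receptor, had 0 reads alone and 134 and 114 with 4T1 cells, at least 78.5-fold and 66.8-fold higher. Among the falls, Abi3bp, a matrix protein (chr16:56477878-56690135, forward strand), measured 82.9, 288.4 and 126.6 against 0.9, 3.7 and 0.0, a difference of -6.13, and Cyp2f2, a cytochrome P450, had 410 reads alone and 0 with 4T1 cells, at least 77.7-fold lower.

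Of the 1340 genes higher at 5 days than in monoculture, 189 were also higher than at 3 days and 24 were lower than at 3 days. Of the 1212 lower genes, 207 were also lower than at 3 days and 12 were higher. Both comparisons use the same 5-day libraries, so a deviation of those libraries moves both differences in the same direction. The excess of same-direction genes is therefore partly built in, and how much was not tested. Between 5 and 3 days, 340 genes were higher (3.2% of those tested) and 395 lower (3.71%), 6.91% in either direction. These 2 counts were smaller without single libraries: 140 and 171 without 3-day replicate 2, 171 higher without 5-day replicate 1, 144 higher without 5-day replicate 2, and 193 and 257 without 5-day replicate 3.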

How the data were processed

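RNA of sorted fibroblasts was sequenced as 3′ end mRNA libraries, per the labels' protocols. Per the submitters' processing notes, the tools named are bcl2fastq, STAR 2.4.2a and HTSeq and the build is mm10; the annotation, the strand setting and the library factors are not given in the sources used here. The deposited values are normalized counts, a signal in which the authors divided each library's counts by a factor and rounded to 1 decimal. Whole reads were recovered from the steps of low values. With a tolerance of 0.051, 99.98% to 100.0% of the values in each library were whole numbers of reads, 1 read was worth 0.481 to 1.66 units, and totals ran from 1048471 to 3567326 over the 9 libraries. Columns were matched to samples by name; that of 5-day co-culture replicate 2 carries no mention of 4T1 and was assigned by elimination, all other samples having a column of their own. The table had 18 genes with date-like names.

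Differences were tested with limma 3.58.1 (R 4.3.3, eBayes with trend, two-sided) on log2(value + 1), a scale that understates changes of low genes. The fit held all 9 libraries with 1 mean per group, genes reaching a value of 5 in 3 or more libraries (10639 tested, 1292 not) and Benjamini-Hochberg adjustment with a threshold of 0.05. A gene that passed this filter only through the group where it is high could hardly be called in the other direction. On simulated counts for the 5-day comparison over 10578 genes, 50 genes each were changed 1.5-, 2-, 4- and 8-fold. Of these 2%, 44%, 80% and 94% were recovered, with 11 false among 121 calls. Far fewer genes were changed there than were called in the data, and the adjustment depends on that number. The recovered shares therefore need not hold for the comparison itself. Genes with 0 reads in a group got a bound against 3 reads, and those with 1 to 3 reads a ratio with an exact 95% interval. Gene lists were counted, not tested.

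The comparison and all 53 gene lists and 9 marker lists were chosen with earlier results of these data known. Genes named were taken from Runx1 and Pdpn, the 12 largest rises and falls, up to 6 called members of each list in each direction and its highest uncalled member, all members of 18 lists, the 3 highest markers of each marker list, and the 6 largest differences between days in each direction. The text names a selection of these made after the values were seen, and some named genes lie outside that rule; a few that it takes are not reported here. Positions are from GENCODE M21 and promoters from RefSeq, both on GRCm38, the build mm10. The settings varied were the pseudocount (0.5 or 5), the filter (none, or a mean of 20 or more), the scaling (TMM, median of ratios or quantiles), a replicate block, only the 2 groups compared, edgeR 4.0.16 and DESeq2 1.42.0 on recovered reads, reads thinned to 1048471 per library, and each library left out.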

Additional observations from a re-analysis of the deposited data

Results flagged for a closer look

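Of the named genes tested, 187 were called at 5 days against monoculture and 16 were not. Among all of these, 75 differed between 5 and 3 days of co-culture by limma, against 6.91% of all genes tested. Some were named for this difference, and the calls at 5 days rest on the same 5-day libraries. The 75 are therefore no share of unselected genes. Such a difference is the same as a difference between the changes from the shared monocultures. The values are log2 differences, 5 minus 3 days. For 44 of the 75 the call held under each of the 21 alternatives that tested the gene. The alternatives were added for these values after the data were seen.

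Among those 44, sterol and lipid genes were higher at 5 days, by 1.21 for Hmgcs1, 1.5 for Nsdhl, 1.41 for Scd2 and 1.23 for Plin2. ATF4 targets were lower at 5 days, at -1.79 for Asns, -1.28 for Chac1, -2.01 for Psat1, -1.49 for Trib3, -2.47 for Fgf21 and -3.8 for Gdf15. Signal genes higher at 5 days were Wnt2 at 1.92, Wnt9a at 1.71, Jag1 at 2.18, Heyl at 3.06 and Vegfc at 1.6. Signal and receptor genes lower at 5 days were Sfrp1 at -1.99, Tgfbr3 at -1.73, Fgf10 at -2.08, Pdgfra at -1.26, Osmr at -1.18 and Adm at -1.72. Inflammatory genes were lower, at -4.67 for Csf2, -2.23 for Cxcl1, -2.03 for Cxcl5, -3.54 for Ptx3, -1.57 for C1s1, -2.23 for Vcam1 and -1.43 for Zbp1. Matrix and adhesion genes differed by 1.46 for Col5a3, -0.94 for Col12a1, -1.3 for Dcn, -2.46 for Fbln1, -3.05 for Abi3bp, -1.85 for Nid2 and -1.92 for Itga8. The others were Vim at 1.18, Rhob at 0.91, Car2 at 2.05, Egr1 at -1.06, Tagln at -1.44, Ube2c at -1.34, Hmox1 at -1.61, Gclm at -1.63 and Sod3 at -1.95.

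The call was lost under at least 1 alternative for the other 31, none of which changed sign. Higher at 5 days were Acsl3 at 1.67, Cyp51 at 1.2, Fads2 at 0.94, Sqle at 1.18, Cox7a2 at 0.83, Has2 at 1.04, Klf6 at 0.86, Pgf at 1.35, Prokr2 at 1.47, Stra6 at 1.62, Tgfb3 at 0.99, Tnfrsf11b at 1.23 and Timp3 at 1.04. Lower at 5 days were Aldh1a1 at -1.46, Apoe at -1.24, Cd40 at -1.07, Cxcl14 at -1.21, Id4 at -1.65, Igf1 at -1.77, Il1r1 at -1.1, Il6st at -0.94 and Itga11 at -0.74. Also lower were Mmp11 at -1.65, Mmp23 at -0.98, Penk at -1.31, Pi16 at -2.05, Procr at -0.82, Serpina3n at -1.08, Slc7a11 at -2.45, Tnfsf11 at -2.49 and Thy1 at -0.72.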

How the results depend on the processing

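Of 187 named genes called at 5 days, 181 stayed past the threshold in the same direction under each of the 21 alternatives that tested them. The other 6 are given with their libraries above, and 0 changed sign. A gene that an alternative filtered out or gave no adjusted p was skipped there and not counted as lost, which left 3886 values. Among uncalled genes the sign turned for Acta2 (-0.32 to 0.04 when leaving out 1 library), Col1a1 (-0.02 to 0.32 likewise, and -0.22 with quantile normalization), Fasn (0.09 at equal depth) and Slc7a11 (-0.75 to 0.36 when leaving out 1 library). The 1340 higher and 1212 lower genes were 1387 and 1349 with edgeR, 1351 and 1199 with DESeq2, and 936 and 1171 at equal depth. With only the 2 groups compared, and so without the 3-day libraries in the fit, they were 1397 and 1326. At equal depth the 340 genes higher at 5 than at 3 days became 191, complex I 9 and the higher immediate early genes 3, and the cause was not tested.

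Leaving out 1 library at a time gave 994 to 1430 higher and 825 to 1314 lower genes, 140 to 349 and 171 to 400 between the days, 0.23 to 0.51 for Pdpn and 0.0 to 0.47 for Runx1, both uncalled throughout. Called members ranged from 26 to 30 higher interferon effectors, 5 to 6 higher and 1 to 3 lower sensors, 14 to 18 cholesterol genes, 8 to 15 in complex I, 9 to 15 in complexes II to IV, 2 to 6 higher and 21 to 26 lower immediate early genes, 2 to 3 higher and 7 to 10 lower fibrillar collagens, 5 to 9 higher and 2 to 4 lower contractile genes, and 3 to 11 lower proliferation genes. Same-numbered monoculture and 5-day libraries correlated at 0.14, 0.233 and 0.041 in their deviations from the group means, each best with its own number. Between monoculture and 3-day libraries the values were 0.125, -0.114 and 0.049, with best matches at replicates 2, 3 and 1. Between 3-day and 5-day libraries they were 0.175, -0.112 and -0.063, with best matches at replicates 1, 1 and 2. The labels pair no libraries, and same-numbered ones were taken to share only a number. With a replicate block 2663 genes were called in place of 2552, 2507 of them by both, and 827 in place of 735 between the days.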

Other observations

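Members of the tumour necrosis factor superfamily, cell-surface ligands and receptors of inflammation and survival, went in both directions at 5 days. Of 18 tested, 6 were higher and 4 lower than in monoculture (33.3% and 22.2%), against 12.6% and 11.4% of all genes tested. The ligand Tnfsf15 measured 5.0, 2.4 and 2.6 alone and 304.6, 429.4 and 367.0 with 4T1 cells, a log2 difference of 6.44 (SE 0.27; limma adjusted p = 2.4e-10). Tnfsf11, the ligand RANKL that drives osteoclast formation, measured 22.9, 76.9 and 20.6 alone and had 0 reads in each co-culture library against 229 in monoculture, so it was at least 43.4-fold lower (limma adjusted p = 2.7e-06). Its decoy receptor gene Tnfrsf11b rose from 18.2 ± 4.29 to 55.7 ± 22.1 (SD, n = 3; 1.52), and the groups of both genes did not overlap. Cd40, a costimulatory receptor, averaged 7.87 ± 0.987 alone and 47.4 ± 7.93 with 4T1 cells (SD, n = 3; 2.44). Among the lower receptors, Tnfrsf1a had a difference of -0.78 and Ltbr, the lymphotoxin receptor, one of -0.8.

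Of 34 lysosome genes tested 6 were lower (17.6%, against 11.4% of all genes tested) and 1 was higher, or 3 lower without co-culture replicate 2. The lower ones included the protease genes Lgmn at -0.88 and Ctsf at -1.28 and the hexosaminidase subunit Hexa at -0.92, and the higher one was the cathepsin C gene Ctsc at 1.91. Of 67 mitochondrial ribosome genes 11 were higher (16.4%, against 12.6% of all genes tested, so near that share) and 0 lower, or 7 higher without co-culture replicate 2 and 6 at equal depth, with Mrpl12 at 0.95.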
